A study of Mus musculus with 4 samples.

Results

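The phagocyte NADPH oxidase was examined through 7 genes, of the 54532 genes in the count table. They were chosen as named components of the enzyme, with earlier results of these data known. Cybb and Cyba encode the membrane subunits, Ncf1 and Ncf4 encode cytosolic subunits, Rac1 and Rac2 encode the small GTPases that join the complex, and Nox4 encodes a separate oxidase that pairs with the Cyba protein. Transcripts were measured in tumor-associated macrophages (TAMs) of tumors formed by NB9464, a mouse neuroblastoma line with amplified MYCN. The tumors arose in C57BL/6 mice injected under the skin at 4 to 6 weeks of age with NB9464 cells, were left untreated, and were collected on day 40. The TAMs were captured with magnetic beads against CD11b and F4/80. The series has 2 libraries labelled SYK WT (M7 and M8) and 2 labelled SYK KO (M9 and M10). In myeloid Syk KO mice both floxed Syk and Cre are present, the latter driven by the lysozyme M promoter, which is active in macrophages, monocytes and neutrophils. Whether the SYK WT controls carry either allele, and how many mice each library holds, is not given in the sources used here. The labels also state that the RNA came from bone marrow-derived macrophages, and the title of the series names an adoptive transfer, so the origin of the RNA rests on labels that differ among themselves.

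The phagocyte NADPH oxidase moves electrons from cytosolic NADPH across a membrane to oxygen and so makes superoxide. At rest, the catalytic subunit (the Cybb protein, also called NOX2) and its partner (the Cyba protein) sit in the membrane apart from the cytosolic subunits. After a phagocyte is stimulated, the cytosolic subunits and a GTP-bound Rac protein move to the membrane and switch the enzyme on. In macrophages and neutrophils the oxidase is best known for the respiratory burst that helps kill engulfed microbes. Nox4 differs in that it needs no cytosolic subunits, is regarded as active without stimulation, releases mainly hydrogen peroxide, and is typical of kidney, vessel wall and fibroblasts and not of phagocytes.

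Total counts ran from 20755886 to 23518045 per library, and 3 counts, the smallest signal taken as detectable, corresponded to between 0.109 and 0.163 CPM (counts scaled by TMM to a common library total). This floor covers counting error only. Mitochondrial genes took 2.20% and 2.34% of the counts in the SYK WT libraries and 6.00% and 15.9% in the SYK KO libraries. Syk, the gene named by the labels, had 765 and 569 counts in M7 and M8 and 4033 and 2944 in M9 and M10 (log2 fold change 2.80, edgeR adjusted p = 0.000674). Counts over the whole gene do not separate the floxed part, but the gene went against the labels, so the groups are called the libraries labelled SYK WT and the libraries labelled SYK KO. The Syk value was 0.013 with libraries scaled to macrophage markers and -0.83 with libraries scaled to pan-leukocyte genes, scalings that are described with the results. In the libraries labelled SYK KO all 10 macrophage markers and all 6 pan-leukocyte genes were higher, with medians of 3.01 and 3.57 on the log2 scale. Marker calls here are those with an edgeR adjusted p under 0.05, by which 22.7% of all genes tested were higher and 16.7% were lower. The summed level of the macrophage markers was 971 and 670 CPM in M7 and M8 against 8001 and 5080 CPM in M9 and M10. Of 8 fibroblast markers, 6 were lower and none was higher, with a summed level of 12635 and 14540 CPM in M7 and M8 against 4037 and 4958 CPM in M9 and M10. Of 6 pericyte and smooth muscle markers, 4 were lower, and their sum was 531 and 504 CPM against 119 and 182 CPM. Of 8 endothelial markers, 4 were lower and 0 were higher. Of 8 neutrophil markers, 6 could be tested and 5 were higher, with a sum of 25.0 and 39.3 CPM against 408 and 203 CPM, while Ly6g had at most 5 counts in any library. Of 4 dendritic cell markers, 3 were higher and 0 were lower, with a median of 4.04. Of 4 B cell markers, 3 could be tested and 1 was higher. Of 6 neuroblastoma genes, 3 had 0 counts in every library, and the other 3 were detected. Mycn was higher (0.74, edgeR adjusted p = 0.0415), and the summed level of the list, nearly all from Hand2, was 284 and 323 CPM in M7 and M8 and 210 and 331 CPM in M9 and M10. The part of these cell types in the results below was not tested. In bulk RNA, fewer cells of a type and less RNA per cell cannot be told apart.

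All 7 genes passed the filter on low counts. Among them, 6 were higher in the libraries labelled SYK KO and 0 were lower (edgeR quasi-likelihood test, Benjamini-Hochberg adjusted p under 0.05 over 16451 genes). Of all genes tested, 22.7% were called higher and 16.7% were called lower. The median log2 fold change of the 7 genes was 3.13, and that of all genes tested was 0.02. The same 6 genes had both libraries labelled SYK KO above both labelled SYK WT, a pattern held by 38.0% of all genes tested, and Nox4 had both below, a pattern held by 37.2%. No source states that the libraries came from separate animals or cultures, so the p-values measure the spread between these libraries only. With 2 libraries against 2, an exact two-sided permutation test of a single value cannot go below 0.333, so each adjusted p draws on the dispersion that edgeR shares among genes.

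**Figure D1:**
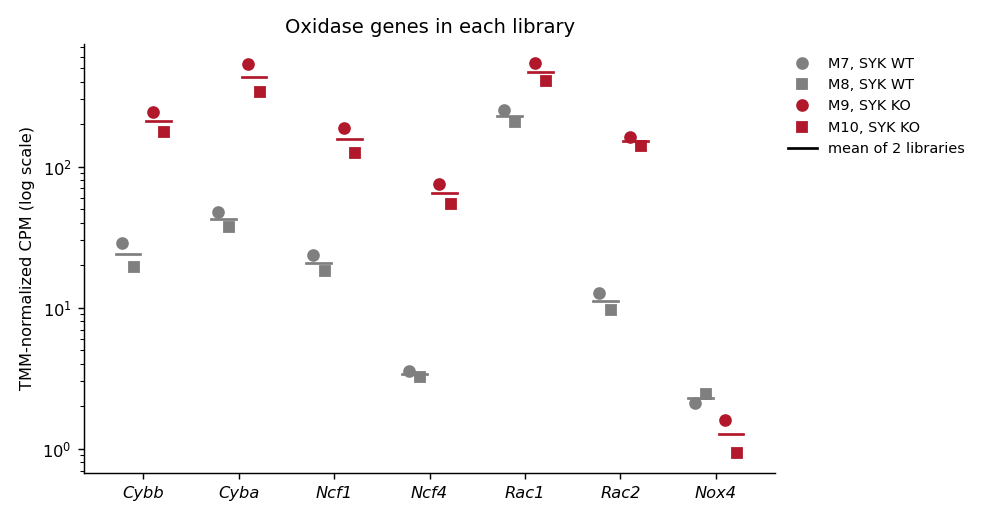
TMM-normalized CPM on a log axis of each of the 7 genes in the 4 libraries, by group, with each point 1 library and the line the mean of 2. The libraries labelled SYK KO lie above those labelled SYK WT for 6 genes and below them for Nox4, where all 4 values lie between 0.926 and 2.44 CPM.

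The membrane subunits were both higher. Cybb, the catalytic subunit that carries the electrons across the membrane, had 782 counts in M7 and 475 in M8 against 5008 in M9 and 3246 in M10. In CPM these were 28.5 and 19.3 against 243 and 177, so the lowest library labelled SYK KO lay far above the highest labelled SYK WT. The mean rose from 23.9 ± 6.49 to 210 ± 46.9 CPM (SD, n = 2 each), which is 8.77-fold or 3.13 on the log2 scale (SE 0.27, edgeR adjusted p = 0.000929). Cyba, the partner that stabilises the catalytic subunit and docks the cytosolic subunits, had 1299, 923, 10984 and 6151 counts in M7, M8, M9 and M10. Its CPM were 47.4 and 37.6 against 533 and 335, again without overlap, and M9 stood well above M10. The log2 fold change of Cyba was 3.35 (SE 0.29), or 10.2-fold (edgeR adjusted p = 0.000906).

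The cytosolic subunits were higher as well, and by unequal factors. Ncf1, the organizer that bridges the cytosolic subunits to Cyba, had 645, 449, 3861 and 2281 counts in M7, M8, M9 and M10, or 23.5 and 18.3 CPM against 187 and 124 CPM. Its log2 fold change was 2.90 (SE 0.26), or 7.46-fold, the smallest of the 4 subunits (edgeR adjusted p = 0.00101). Ncf4, which binds a membrane phosphoinositide and helps hold the oxidase active on the phagosome, had 98 and 79 counts in M7 and M8 and 1543 and 992 in M9 and M10. The mean of Ncf4 rose from 3.39 ± 0.253 to 64.5 ± 14.7 CPM (SD, n = 2 each). Its log2 fold change of 4.25 (SE 0.24), or 19.0-fold, was the largest of the 7 genes (edgeR adjusted p = 0.000486).

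The Rac GTPases were both higher but differed in size. Rac2, the form found mainly in blood cells, had 346 and 236 counts in M7 and M8 and 3365 and 2572 in M9 and M10, or 12.6 and 9.60 CPM against 163 and 140 CPM. Its log2 fold change was 3.77 (SE 0.21), or 13.6-fold (edgeR adjusted p = 0.000486). Rac1, the form expressed in nearly every cell type, had 6862, 5079, 11086 and 7433 counts, or 250.2 and 207 CPM against 538 and 405 CPM. The groups of Rac1 values did not overlap. The log2 fold change of Rac1 was 1.05 (SE 0.22), or 2.06-fold (edgeR adjusted p = 0.0122). Without M8 it was 0.90 and not called (edgeR adjusted p = 0.119), and with libraries scaled to their total counts alone it was 0.52 and not called (edgeR adjusted p = 0.148). Over its 12 alternatives Rac1 was called higher in 8 (edgeR or DESeq2 adjusted p from 2.85e-05 to 0.0383), lower in 2, both with marker scaling (the smaller adjusted p 2.04e-07), and was not called in 2.

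Nox4 was not called. It had 58 and 60 counts in M7 and M8 and 33 and 17 in M9 and M10, or 2.11 and 2.44 CPM against 1.60 and 0.926 CPM. Both libraries labelled SYK KO were below both labelled SYK WT, and M9 and M10 differed from each other by more than M7 and M8 did. The log2 fold change was -0.84 (SE 0.54, edgeR adjusted p = 0.252). Without M9 it was -1.38 and was called lower (edgeR adjusted p = 0.0375). Over the 12 alternatives Nox4 was called lower in 3, and the adjusted p ranged from 1.42e-06 with pan-leukocyte scaling to 0.710 without M8. Whether Nox4 was called thus turned on whether M9 was kept and, as shown further on, on how the libraries were scaled. Without M9 more of all genes tested were called lower than in the main fit.

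**Figure D2:**
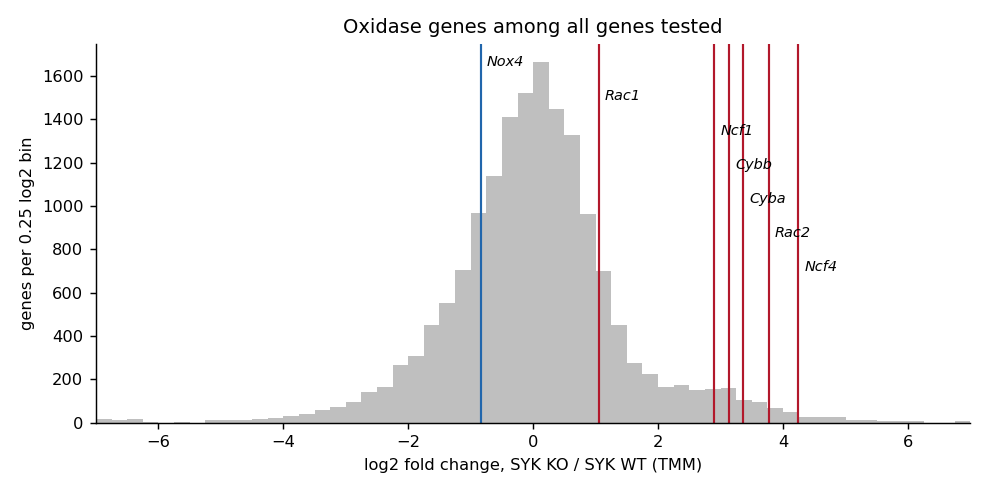
Histogram of the log2 fold changes (libraries labelled SYK KO against SYK WT) of the 16451 genes tested, drawn between -7 and 7, with vertical lines for the 7 genes, red where the adjusted p was under 0.05 and blue where it was not. Ncf4 lies at 4.25, Rac1 at 1.05 and Nox4 at -0.84, while the median of all genes is 0.02.

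The place of each gene among all genes tested, shown by the histogram of log2 fold changes, set Rac1 and Nox4 apart from the rest. Ncf4 stood at percentile 99.0, Rac2 at 98.4, Cyba at 97.4, Cybb at 96.7 and Ncf1 at 95.7. Rac1 stood at percentile 83.1 and Nox4 at percentile 22.2. In the main fit Ncf4, Rac2, Cyba, Cybb and Ncf1 lay in the top 5% of log2 fold changes, and Rac1 and Nox4 lay lower. With every gene of at least 1 count tested, Cybb, Cyba and Ncf1 fell outside it, at percentiles 93.5, 94.75 and 92.7. In the DESeq2 Wald test they fell outside it at 94.3, 94.95 and 93.5. Ncf1 also fell outside it without M7, M8 or M9 (94.7, 93.9 and 94.3), and Cybb without M8 (94.6).

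The set of promoter windows used here, placed around RefSeq starts on GRCm38.p6, held 4 of the 7 genes, and all 4 are shown. Among them Cybb, Cyba and Ncf1 were called higher and Nox4 was not called. Each window runs 5′ to 3′ along the gene's own strand, from 250 bases before the RefSeq start to 50 bases after it. Ncf4, Rac1 and Rac2 had no window in that set and are named only. The windows are chrX:9469275-9469574 (minus strand) for Cybb, chr8:122432891-122433190 (minus strand) for Cyba, chr5:134229576-134229875 (minus strand) for Ncf1 and chr7:87246399-87246698 (plus strand) for Nox4. Capitals mark the matches to the motifs described next.
Cybb: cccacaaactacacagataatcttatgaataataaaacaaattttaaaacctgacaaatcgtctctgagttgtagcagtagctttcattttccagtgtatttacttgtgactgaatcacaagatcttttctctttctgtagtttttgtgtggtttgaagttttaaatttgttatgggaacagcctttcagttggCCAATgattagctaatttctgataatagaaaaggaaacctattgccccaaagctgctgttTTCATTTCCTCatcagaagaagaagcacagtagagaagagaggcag
Cyba: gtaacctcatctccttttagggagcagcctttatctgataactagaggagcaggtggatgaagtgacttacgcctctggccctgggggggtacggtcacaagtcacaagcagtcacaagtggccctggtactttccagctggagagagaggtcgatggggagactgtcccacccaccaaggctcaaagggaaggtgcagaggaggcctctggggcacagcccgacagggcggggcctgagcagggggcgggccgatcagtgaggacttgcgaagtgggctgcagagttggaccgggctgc
Ncf1: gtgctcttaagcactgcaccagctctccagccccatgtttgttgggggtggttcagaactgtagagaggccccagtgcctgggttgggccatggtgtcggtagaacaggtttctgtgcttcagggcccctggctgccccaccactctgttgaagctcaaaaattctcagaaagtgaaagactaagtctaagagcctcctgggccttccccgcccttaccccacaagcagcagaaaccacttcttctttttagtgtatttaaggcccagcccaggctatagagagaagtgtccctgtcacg
Nox4: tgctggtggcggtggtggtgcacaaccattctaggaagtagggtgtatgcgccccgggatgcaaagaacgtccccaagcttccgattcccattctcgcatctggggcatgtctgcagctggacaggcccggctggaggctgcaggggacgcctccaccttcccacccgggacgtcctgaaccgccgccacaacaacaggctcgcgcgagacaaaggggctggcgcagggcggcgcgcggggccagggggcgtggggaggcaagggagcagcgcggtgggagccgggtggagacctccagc

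Both strands of each window were searched for GAGGAA, a core of the sites bound by the myeloid factor PU.1, for GGAANNGAA, a composite of an ETS and an interferon regulatory factor site, and for CCAAT, a common promoter element. Cybb held all 3. Its CCAAT lay 56 to 52 bases before the start, and its GGAANNGAA (4 to 12 bases after the start) and GAGGAA (9 to 14 bases after it) lay on the opposite strand and overlapped, so they are drawn as 1 run of capitals. The windows of Cyba, Ncf1 and Nox4 held none of the 3 as spelled. Of 32851 promoter windows of this length, 28.3% held GAGGAA, 8.24% held GGAANNGAA and 37.4% held CCAAT. A match is a description of the letters and not a bound site, and a window without one says nothing about the factor. The Cybb and Nox4 windows lie inside the genes as GENCODE draws them (chrX:9435252-9487771, minus strand, and chr7:87246096-87398710, plus strand), whose outer ends are farther upstream than the RefSeq starts.

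Levels can be compared between genes only per length, so counts were also taken per base of summed exon length and given as TPM (per-length levels scaled to the same total in each library). In the libraries labelled SYK WT, the order of mean TPM was Rac1 at 200 ± 32.2, Cyba at 161 ± 30.5, Ncf1 at 22.4 ± 4.57, Cybb at 16.2 ± 4.82, Rac2 at 14.1 ± 3.07, Ncf4 at 6.60 ± 0.669 and Nox4 at 1.05 ± 0.0787 (SD, n = 2 each). In this order the ranges of Rac1 and Cyba overlapped, as did those of Ncf1 and Cybb and those of Cybb and Rac2, while the other neighbours were separate. In the libraries labelled SYK KO, the order was Cyba at 831 ± 421, Rac1 at 206 ± 80.7, Rac2 at 95.2 ± 29.0, Ncf1 at 84.3 ± 39.9, Cybb at 71.2 ± 29.5, Ncf4 at 62.9 ± 26.3 and Nox4 at 0.298 ± 0.166 (SD, n = 2 each). Here the ranges of Rac2 and Ncf1, of Ncf1 and Cybb, and of Cybb and Ncf4 overlapped. The mean TPM of Rac1 was near 200 in both groups, unlike its CPM. Its values of 263 in M9 and 149 in M10 lay on either side of 222 in M7 and 177 in M8. TPM carries no TMM factor and is scaled to a total of per-length levels. With libraries scaled to their total counts alone, also without TMM, the log2 fold change of Rac1 was 0.52. Cyba and Rac1 led in both groups, and Nox4 was the lowest in both. With the length of the longest coding transcript instead, Cyba led in the libraries labelled SYK WT at 162 TPM, ahead of Rac1 at 156 TPM. In the libraries labelled SYK KO, Ncf1 at 81.4 TPM then stood ahead of Rac2 at 74.2 TPM. Nox4 was at 1.72 TPM in the libraries labelled SYK WT and 0.511 TPM in those labelled SYK KO.

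Ratios between 2 genes of the same library do not move with the scaling of the library. The ratio of Cybb to Cyba per length was 0.108 and 0.0921 in M7 and M8 and 0.0816 and 0.0944 in M9 and M10, and the groups overlapped (difference of the mean log2 ratios -0.18, exact two-sided permutation p = 0.667, Benjamini-Hochberg adjusted over 5 ratios 0.667). The ratio of Ncf1 to Ncf4 was 3.63 and 3.13 in the libraries labelled SYK WT and 1.38 and 1.27 in those labelled SYK KO, a difference of -1.35 on the log2 scale. The ratio of Rac2 to Rac1 was 0.0731 and 0.0673 against 0.440 and 0.501, which is 6.70-fold. In all 4 libraries Rac1 was the more abundant of the pair per length. The ratio of Cybb to Rac1 was 0.0882 and 0.0724 against 0.350 and 0.338, which is 4.30-fold. The ratio of Cybb to Nox4 was 19.7 and 11.6 against 221 and 279, which is 16.5-fold. These last 4 ratios did not overlap between the groups, and each had an exact two-sided permutation p of 0.333, the smallest that 2 libraries against 2 can give (Benjamini-Hochberg adjusted over 5 ratios 0.416).

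Because the macrophage markers and pan-leukocyte genes moved in the same direction as the oxidase genes, the fit was repeated with libraries scaled to each list. Scaled to the 10 macrophage markers, the median log2 fold change of all genes moved from 0.02 to -2.76, and that of the 7 genes moved from 3.13 to 0.35. Of the 7 genes, 1 was called higher (Ncf4) and 2 were called lower (Rac1 and Nox4), beside 0.796% of all genes called higher and 87.1% called lower. Ncf4 had a log2 fold change of 1.43 (SE 0.56, edgeR adjusted p = 0.0134), and over its 12 alternatives the adjusted p ranged from 1.34e-47 to 0.214. The lowest came from testing every gene of at least 1 count, where its log2 fold change was 4.23 against 4.25 in the main fit. The values for Cybb, Cyba, Ncf1 and Rac2 were 0.35 (SE 0.50), 0.53 (SE 0.51), 0.09 (SE 0.50) and 1.0003 (SE 0.51), none of them called. Rac1 turned to -1.76 and Nox4 to -3.72. Scaled to the 6 pan-leukocyte genes, which moved the median of all genes to -3.60, 0 of the 7 genes were called higher and 3 were called lower (Ncf1 at -0.75, Rac1 at -2.59 and Nox4 at -4.53), beside 0.334% of all genes called higher and 92.8% called lower. Cybb, Cyba, Ncf4 and Rac2 were at -0.49, -0.31, 0.60 and 0.15 and were not called. The direction of Rac1, Cybb, Cyba and Ncf1 therefore depended on the scaling, and the calls of Ncf4 and Rac2 did too. A larger share of leukocyte RNA in the libraries labelled SYK KO and a change within the macrophages cannot be told apart in these libraries.

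**Figure D3:**
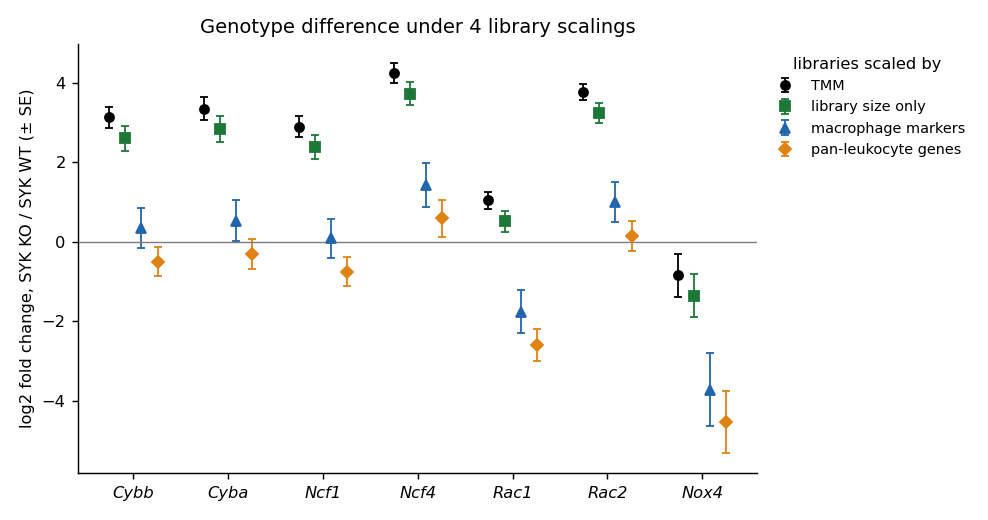
Log2 fold change with its SE for each of the 7 genes under each scaling of the libraries. Under TMM the values run from -0.84 to 4.25, under macrophage-marker scaling from -3.72 to 1.43, and under pan-leukocyte scaling from -4.53 to 0.60.

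The same can be read from the counts of each gene per 100 counts of the geometric mean of the marker genes, a description added after the data were seen. Per 100 macrophage-marker counts, Cybb was at 37.3, 37.0, 45.2 and 49.7 in M7, M8, M9 and M10, and Cyba at 62.0, 71.9, 99.2 and 94.2. Ncf1 was at 30.8, 35.0, 34.9 and 34.9, so its groups overlapped. Ncf4 was at 4.68 and 6.16 against 13.9 and 15.2, and Rac2 at 16.5 and 18.4 against 30.4 and 39.4, both without overlap. Rac1 went the other way, at 327 and 396 against 100.1 and 114, as did Nox4 at 2.77 and 4.68 against 0.298 and 0.260. Against the pan-leukocyte genes, Cybb was at 65.8 and 57.2 in the libraries labelled SYK WT and 43.0 and 44.3 in those labelled SYK KO, and Rac2 was at 29.1 and 28.4 against 28.9 and 35.1. Ncf4 was higher there too, at 8.25 and 9.50 against 13.26 and 13.55. Cyba was lower at 109.3 and 111 against 94.4 and 84.0, and Ncf1 at 54.3 and 54.0 against 33.2 and 31.15. Rac1 and Nox4 were again lower, at 577.5 and 611 against 95.2 and 101.5 and at 4.88 and 7.22 against 0.284 and 0.232. Cybb thus lay higher in the libraries labelled SYK KO against one list and lower against the other, and the groups of Rac2 overlapped against the second. Nox4 was also set against the fibroblast markers, per 100 counts of which it was at 0.900, 0.957, 1.93 and 0.814, and its groups overlapped.

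**Figure D4:**
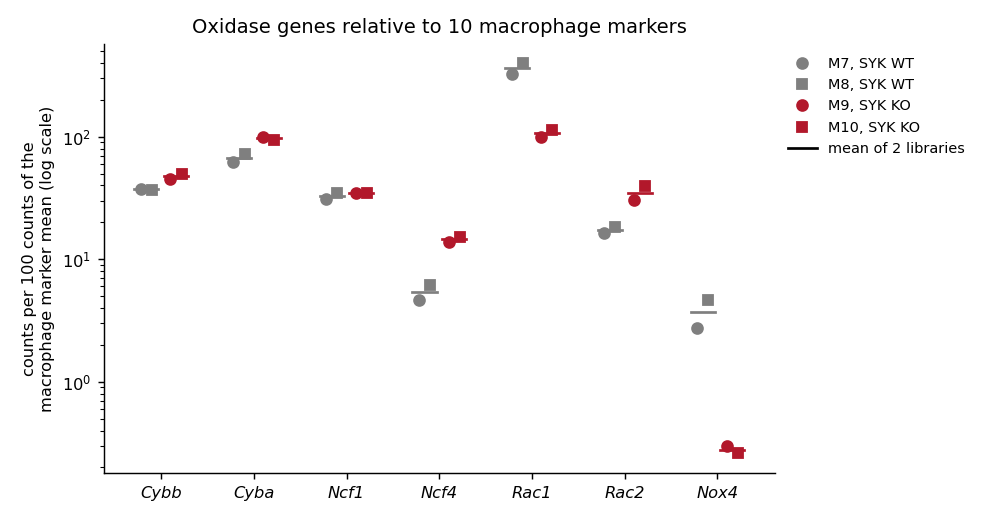
Counts of each of the 7 genes per 100 counts of the geometric mean of the 10 macrophage markers, on a log axis, with each point 1 library and the line the mean of 2. Ncf1 runs from 30.8 to 35.0 over all 4 libraries, whereas Rac1 lies between 327 and 396 in the libraries labelled SYK WT and between 100.1 and 114 in those labelled SYK KO.

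The genes around the oxidase were read from lists of 43 genes, of which 38 passed the filter on low counts. Of these, 23 genes were called higher, 5 were lower and 10 were not called, with a median log2 fold change of 1.05, beside 22.7% of all genes higher and 16.7% lower. With libraries scaled to their total counts alone, 11 were higher and 10 were lower, beside 10.2% and 32.9% of all genes. With macrophage-marker scaling 0 were higher and 30 were lower, beside 0.796% and 87.1% of all genes, so the share called lower was near that background. Among the 4 partners of the phagocyte oxidase, 2 were higher and 1 was lower. Hvcn1, the proton channel that balances the charge the oxidase moves, was higher by 1.73 on the log2 scale (edgeR adjusted p = 0.00218). Rac3, a Rac form typical of the nervous system, was lower at -1.74 (edgeR adjusted p = 0.00353). Cybc1, a chaperone needed for the Cybb protein, had 2812, 2227, 1840 and 1704 counts and was not called (log2 fold change -0.08, SE 0.15, edgeR adjusted p = 0.690). The difference between Cybc1 and Cybb was not tested.

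Of the 14 regulators of assembly, 10 were higher and 0 were lower, beside the same 22.7% and 16.7% of all genes. The largest values were those of Prkcb, a protein kinase C that phosphorylates the Ncf1 protein, at 3.88, of Vav1, a blood-cell exchange factor for Rac, at 3.50, and of Dock2, another blood-cell exchange factor for Rac, at 3.09. Prkcb had 53 and 36 counts in M7 and M8 and 551 and 433 in M9 and M10 (edgeR adjusted p = 0.000674). Arhgdib, a leukocyte inhibitor that holds small GTPases in the cytosol, was higher by 1.94, and Arhgdia, its widely expressed relative, by 1.15. Rap1a, Cdc42, Pak1, Prex1 and Prkcd were higher by 0.80 to 1.40. Without M7 Prkcd was at 0.63 and was not called. With total counts as the scale 4 of the 10 calls held (Prkcb, Vav1, Dock2 and Arhgdib). Without M8 only the calls of these 4 and of Pak1 held, and fewer of all genes tested were called higher than in the main fit. Vav2, Vav3, Tiam1 and Prkca were not called, with values of 0.10, 0.50, -0.40 and -0.47.

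Of the 12 genes that remove superoxide and peroxide, 11 could be tested, 8 were higher and 0 were lower, where 22.7% and 16.7% of all genes were. They included Prdx5 at 2.23, Gpx4 at 2.17 and Gpx1 at 2.12, which reduce peroxides, Sod1 at 1.15 and Sod2 at 0.98, which convert superoxide to hydrogen peroxide, and Cat, which breaks hydrogen peroxide down, at 1.05. Txn1, Txnrd1 and the extracellular dismutase Sod3 were not called, with values of 0.60, 0.16 and -0.61. The calls of Sod2, Cat and Prdx2 were lost with total counts as the scale, and theirs and that of Sod1 without M8. Prdx2 was also not called without M7, with DESeq2 size factors (edgeR adjusted p = 0.0614) or without mitochondrial and rRNA-like genes (edgeR adjusted p = 0.06345). The calls of this list did not all hold without M9 either. Of the 4 genes that supply NADPH, G6pdx and Pgd of the pentose phosphate pathway were higher by 1.14 and 1.05 and Idh1 by 1.17, while malic enzyme Me1 was lower at -0.84 (edgeR adjusted p = 0.00873). The calls of G6pdx, Pgd and Idh1 were lost with total counts as the scale and without M8, and that of Me1 was lost without M7 and without M8. In the fits without M7 and without M8, fewer of all genes tested were called in either direction than in the main fit.

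Of the 9 other oxidases and their organizers, 5 could be tested, 0 were higher and 3 were lower, against 22.7% and 16.7% of all genes. Duox2, a peroxide-making oxidase of epithelia, had 15, 23, 0 and 1 counts in M7, M8, M9 and M10 and was called lower (edgeR adjusted p = 0.0256), and Duoxa1, which helps the Duox1 protein mature, had 60, 62, 6 and 3 counts (log2 fold change -3.33, edgeR adjusted p = 0.0104). Poldip2, which acts with Nox4, was lower at -0.47 (edgeR adjusted p = 0.0440). All 3 calls were lost without M7 and without M8, where fewer of all genes tested were called lower than in the main fit. That of Poldip2 was also lost in the DESeq2 Wald test (adjusted p = 0.0503) and with every gene of at least 1 count tested (edgeR adjusted p = 0.0588). Duox1 had 41, 39, 10 and 11 counts and the organizer Noxo1 had 29, 44, 1 and 7 counts, and neither was called. Nox1 had at most 3 counts in any library, and Nox3, Noxa1 and Duoxa2 had 0 counts in every library. Among NOX-family oxidases other than Cybb, only Nox4, Duox1 and Duox2 had more than 3 counts in any library.

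**Figure D5:**
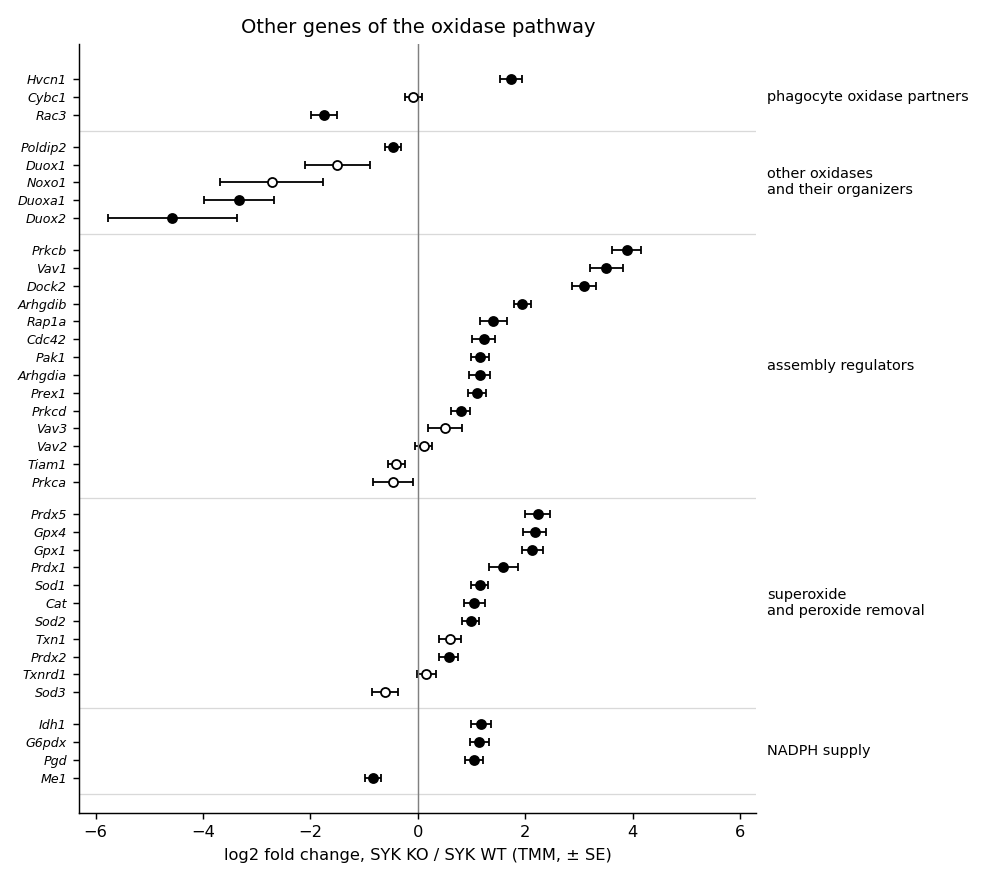
Log2 fold change with its SE of the genes of the surrounding lists that could be tested and are reported, grouped by list, filled where the adjusted p was under 0.05 and open where it was not. Among the regulators of assembly the values run from -0.47 (Prkca) to 3.88 (Prkcb), and no other oxidase or organizer lies above 0.

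The genes whose pattern over the 4 libraries was most like that of Cybb were sought among 9815 protein-coding genes, by the root mean square distance of log2 values centred on each gene. The nearest were Sirpa at 0.0256, Lyn at 0.0346 and Nfam1 at 0.0358. Nearest to Nox4 were Cdk5rap1 at 0.0380, Rbm12b1 at 0.0496 and Pld2 at 0.0533. With 4 libraries such distances describe these libraries alone. For Nox4, with 17 to 60 counts per library, counting error in its own profile leaves uncertain which genes lie nearest.

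The assignment of reads limits some of these values. On GRCm38, Rac1 (chr5:143503634-143528036, minus strand) shares 2309 exon bases, or 51.4% of its summed exon length, with Daglb on the opposite strand, and Ncf1 (chr5:134220053-134229625, minus strand) shares 408, or 11.1%, with Gtf2ird2 on the opposite strand. Whether counting used strand is not given in the sources used here, so reads of these pairs may not be separated. Daglb had 504, 398, 1097 and 908 counts (log2 fold change 1.57, edgeR adjusted p = 0.00161), and Gtf2ird2 had 425, 281, 200 and 314 counts (log2 fold change -0.01). Daglb and Gtf2ird2 were below Rac1 and Ncf1 in every library, with the Gtf2ird2 count nearest to that of Ncf1 in M7 (425 against 645). Of the possible stretches of 31 bases in the transcripts of each gene, those shared with another gene on the same strand came to 0% for Cybb and Ncf4, between 0.579% and 0.813% for Rac1, Nox4 and Ncf1, 4.03% for Rac2 and 7.30% for Cyba. Those shared on the opposite strand, which count if strand was not used, came to 0% for Cybb and Ncf4 and 1.26% for Nox4. They came to 4.22% for Rac2, 7.11% for Cyba, 9.73% for Ncf1 and 50.7% for Rac1.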

How the data were processed

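The 7 genes and the surrounding and marker lists were chosen with earlier results of these data known, and genes of these lists are named or counted. Some listed genes are counted but not reported here by name. The 3 nearest patterns per gene were taken from protein-coding genes with a mean of at least 10 CPM. Per the labels and the study's methods, the authors used STAR 2.6.1d with mm10 and Salmon 1.4.0 within bcbio, and the deposited values are unnormalized whole-number counts per gene. How estimates became whole numbers, and the annotation release, are not given in the sources used here. The methods describe single reads in triplicate, whereas the labels describe paired reads of 2 libraries per genotype. Depth is given in the report.

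Counts were analysed in R 4.3.3 with edgeR 4.0.16: filterByExpr, TMM factors of 1.22, 1.19, 0.876 and 0.787 for M7 to M10, glmQLFit and glmQLFTest, no covariate, and Benjamini-Hochberg adjustment over 16451 genes at 0.05. SE is the absolute log2 fold change divided by the square root of F. Gene names, exon lengths and positions came from GENCODE M21, which matched 54495 of 54532 genes. Counts of same-group libraries were farther apart than sampling noise (chi-square per degree of freedom 50.6 and 168), so none was merged. The scripts were tested on simulated counts. Alternatives were DESeq2 size factors, total counts, scaling to 10 macrophage or 6 pan-leukocyte genes, no mitochondrial or rRNA-like genes, a filter of any count at all or of 10 counts in each library, the DESeq2 1.42.0 Wald test, and each library left out. Coding-transcript lengths and counts per marker counts were added after the data were seen.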

Additional observations from a re-analysis of the deposited data

How the results depend on the processing

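The main results were the log2 fold changes of the 7 genes, the 5 ratios between them, and the counts called among them and among the 43 surrounding genes. Their direction and side of the threshold, or for counts a value within 1.5 times, held in 121 cases and did not in 31. Left out were the ratios taken without exon length, which cannot differ because length cancels. The 121 cases include the 5 ratios with each library left out, judged by sign and by a shift below the larger group SD. With 2 libraries per group that shift is always below the SD, so only the sign could have failed. For ratios without overlap between the groups the sign was fixed too, so these cases say nothing about robustness. With total counts as the scale, 11 surrounding genes were higher and 10 lower, and Rac1 was at 0.52. With macrophage-marker scaling, 1 of the 7 genes was higher and 2 were lower, 0 surrounding genes were higher and 30 lower, and the log2 fold changes were 0.35 for Cybb, 0.53 for Cyba, 0.087 for Ncf1, 1.0003 for Rac2, -1.76 for Rac1 and -3.72 for Nox4. With pan-leukocyte scaling, 0 of the 7 genes were higher and 3 lower, 0 surrounding genes were higher and 34 lower, and the values were -0.49 for Cybb, -0.31 for Cyba, -0.75 for Ncf1, 0.60 for Ncf4, -2.59 for Rac1, 0.15 for Rac2 and -4.53 for Nox4. Over all genes tested, 3729 higher and 2747 lower calls became 1677 and 5411 with total counts, 131 and 14328 with macrophage-marker scaling, 55 and 15270 with pan-leukocyte scaling, and 1478 to 5010 and 807 to 4745 with a library left out. These scalings move every log2 fold change by their own construction. Other scalings, filters and the DESeq2 Wald test changed no call among the 7 genes.

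Leaving out each library in turn gave ranges of 5 to 6 genes higher and 0 to 1 lower among the 7, and of 11 to 25 higher and 1 to 9 lower among the surrounding genes. The log2 fold change ranged from 2.80 to 3.44 for Cybb, 2.89 to 3.66 for Cyba, 2.48 to 3.18 for Ncf1, 3.90 to 4.47 for Ncf4, 0.74 to 1.25 for Rac1, 3.57 to 3.98 for Rac2 and -1.38 to -0.49 for Nox4. Rac1 lost its call without M8, where fewer of all genes tested were called than in the main fit. Nox4 gained a call without M9, where more of all genes tested were called. The cause was not tested. A library left alone in its group was assumed to vary like those of the other group. No paired analysis was possible because the groups share no replicate number. The 17 to 60 counts of Nox4 per library limit its precision.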

Other observations

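Mpo, the neutrophil enzyme that uses hydrogen peroxide to make hypochlorous acid, had 0 counts in M7 and M8, 1 in M9 and 48 in M10, and did not pass the filter of the main comparison. It was above the floor of 3 counts in 1 library. With every gene of at least 1 count tested it was called higher (edgeR adjusted p = 1.95e-05), as in the DESeq2 Wald test (adjusted p = 0.00319) and without M9. It was not called without M7 or without M8. The filter of at least 1 count also took the edgeR adjusted p of Cybb from 0.000929 to 5.55e-35, while its log2 fold change stayed near 3.13, at 3.12. Adjusted p from that filter is therefore not on the scale of the main fit, and the Mpo call rests on M10. In M10 the summed neutrophil markers, mostly S100a8 and S100a9, stood at 203 CPM, below the 408 CPM of M9. Csf3r (1551 counts in M9 and 937 in M10), Cxcr2 (412 and 246), Retnlg (423 and 278) and Ly6g (5 and 1) were also lower in M10. The granule genes Ltf (15 and 22) and Camp (9 and 11) were not, but their counts are too few to rank M9 and M10.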
